A study of Mus musculus with 3 samples.

Results

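Collagens, laminins and other glycoproteins of the extracellular matrix were followed as a set of 49 genes among the 23397 genes measured in the series. The set is a list of genes named by function, and all 49 were found in the files. For description it was divided into 17 genes of the basement membrane, 25 of the interstitial and fibrillar matrix, and 7 of matrix remodelling, which are crosslinking enzymes, proteases and protease inhibitors. RNA was measured in 3 libraries of endothelial cells made from mouse embryonic stem (ES) cells, with 1 library per group. The library labelled Gata12KO came from ES cells with a knockout of Gata1 and Gata2, the SclKO library from ES cells with a knockout of Scl (current symbol Tal1), and the WT library from wild type ES cells. The cells of each were grown as embryoid bodies, floating aggregates in which ES cells differentiate, for 4.75 days and sorted as positive for Tie2 and CD31 and negative for CD41. Before the sort the bodies were dispersed with collagenase and dispase, enzymes that digest matrix proteins. All cultures held serum and ascorbic acid, a cofactor of the enzymes that hydroxylate collagen. How many clones or cultures went into each library and whether the lines share a parent, the sources used here do not give.

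The basement membrane is the thin sheet on which endothelium rests. Laminins, each a trimer of an alpha, a beta and a gamma chain, and type IV collagen form its networks, and nidogens and the heparan sulfate proteoglycans perlecan (Hspg2) and agrin join or bind them. The interstitial matrix holds the fibrillar collagens of types I, III and V, fibronectin, fibrillins and fibulins, and is made largely by mesenchymal cells, although embryonic endothelium is also known for its fibronectin. Scl, Gata1 and Gata2 are transcription factors of blood formation, and Scl acts in the endothelium from which blood cells arise.

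Levels are in FPKM, which scales fragments to transcript length and to the fragments mapped in a library, so they can be compared between genes within a library. Each comes with a lower and an upper bound of 2 Poisson standard deviations, which cover counting error alone. With 1 library per group there is no replicate check of any difference and no p-value. A gene is called higher or lower where it reached 1 FPKM in any library, its ratio of (FPKM + 1) was at least 2-fold and the bounds of both libraries did not overlap. The bounds imply 25.0M, 14.6M and 16.5M fragments on listed entries in the libraries labelled Gata12KO, SclKO and WT, and 1.52%, 1.43% and 1.40% of these fell on the 49 genes. Tal1 had 38.7 FPKM in the library labelled Gata12KO, 1.59 in SclKO and 51.0 in WT. Gata2 had 44.9 FPKM in the library labelled Gata12KO, 5.81 in SclKO and 12.0 in WT, and Gata1 had 5.66 FPKM in the library labelled Gata12KO and 4.64 in WT and stood at 0 in SclKO. Since the library labelled Gata12KO had no less of Gata1 or Gata2 than WT had, the levels do not check its label. Which part of a gene each knockout removes is not stated in the sources used here, and every direction drawn from it carries this limit.

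None of the 12 endothelial markers was listed at 0 in any library, and Cdh5 (VE-cadherin) had 141 FPKM in the library labelled Gata12KO, 42.9 in SclKO and 116 in WT. Their summed level was 791 FPKM in the library labelled Gata12KO, 312 in SclKO and 657 in WT. Markers of other cell types were summed in the same way. The 14 mesenchyme markers, which hold none of the 49 genes, summed to 39.9 FPKM in the library labelled Gata12KO, 179 in SclKO and 86.8 in WT, with the highest, Acta2, at 11.7 in the library labelled Gata12KO, 55.1 in SclKO and 42.1 in WT and Tbx18 listed at 0 in SclKO. The 16 markers of extraembryonic endoderm, a tissue known for making basement membrane, summed to 148 FPKM in the library labelled Gata12KO, 188 in SclKO and 165 in WT. Among them Afp and Amn were listed at 0 in the library labelled Gata12KO and in SclKO, as was Apoa4 in SclKO. Blood markers summed to 31.1 FPKM in the library labelled Gata12KO, 1.19 in SclKO and 190 in WT, with Hba-x at 0 in the library labelled Gata12KO, Gata1 and Ptprc in SclKO, and Ptprc in WT. Among them Itga2b, the gene of the CD41 that the sort selected against, had 17.6 FPKM in the library labelled Gata12KO, 0.333 in SclKO and 22.8 in WT. Single endoderm markers differed more than their sum: Sox7, which endothelium also expresses, had 87.0 FPKM in the library labelled Gata12KO, 21.9 in SclKO and 48.3 in WT, and Krt8 had 17.1 FPKM in the library labelled Gata12KO, 77.5 in SclKO and 40.8 in WT. Pluripotency markers summed to 15.6 FPKM in the library labelled Gata12KO, 10.4 in SclKO and 33.8 in WT, with Dppa4 at 9.96 in the library labelled Gata12KO, 2.28 in SclKO and 25.2 in WT. Cardiomyocyte markers summed to 13.2 FPKM in the library labelled Gata12KO, 16.4 in SclKO and 13.3 in WT. The WT library also stood apart in Y-linked genes outside the named lists, with Uty at 10.9 FPKM in the library labelled Gata12KO, 8.16 in SclKO and 0.954 in WT and Eif2s3y at 39.4 in the library labelled Gata12KO, 34.3 in SclKO and 7.26 in WT, examples chosen after their values were seen, while Xist was under 0.2 FPKM in each library. The part of this difference in the comparisons with WT, X-linked Col4a5 and Timp1 included, was not tested. In bulk RNA, fewer cells of a type and less RNA per cell cannot be told apart.

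A pair of start regions is shown, one shared by both main type IV collagen genes and one belonging to a collagen gene with a choice of starts, and no effect of either on the levels was tested. Col4a1 and Col4a2 encode the chains of the common type IV collagen trimer and lie head to head on chromosome 8. In the files, on mm9, Col4a1 runs from 11198423 to 11312826 on the reverse strand in 52 exons and Col4a2 from 11312829 to 11449287 on the forward strand in 48 exons, which leaves 2 bases between them. The windows are from RefSeq on build GRCm38.p6, 5′ to 3′ on each gene's strand, with 250 bases before and 50 after the annotated start. Capitals mark the 78 bases that both windows hold, on opposite strands.
Col4a1, chr8:11312777-11313076, reverse strand: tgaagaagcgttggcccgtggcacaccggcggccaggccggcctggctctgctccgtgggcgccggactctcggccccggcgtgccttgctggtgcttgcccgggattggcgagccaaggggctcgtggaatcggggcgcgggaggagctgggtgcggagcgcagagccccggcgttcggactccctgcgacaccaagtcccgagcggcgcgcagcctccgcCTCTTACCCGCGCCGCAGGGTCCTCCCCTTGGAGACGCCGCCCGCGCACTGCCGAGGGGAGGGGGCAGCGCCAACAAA
Col4a2, chr8:11312555-11312854, forward strand: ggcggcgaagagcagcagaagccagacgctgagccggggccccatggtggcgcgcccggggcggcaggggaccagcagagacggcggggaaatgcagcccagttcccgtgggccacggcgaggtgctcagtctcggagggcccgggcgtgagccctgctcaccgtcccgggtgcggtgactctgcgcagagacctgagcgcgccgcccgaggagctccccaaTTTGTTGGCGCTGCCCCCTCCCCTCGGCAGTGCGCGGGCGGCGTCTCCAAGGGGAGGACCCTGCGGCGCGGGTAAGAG
The other region is that of Col18a1, the collagen from which endostatin is cut. Its entries in the files begin at 2 places 52825 bases apart on mm9, and its RefSeq windows on GRCm38.p6 lie the same distance apart. Capitals mark GGGCGG, the GC box, on either strand.
Col18a1 upstream start, chr10:77166481-77166780, reverse strand: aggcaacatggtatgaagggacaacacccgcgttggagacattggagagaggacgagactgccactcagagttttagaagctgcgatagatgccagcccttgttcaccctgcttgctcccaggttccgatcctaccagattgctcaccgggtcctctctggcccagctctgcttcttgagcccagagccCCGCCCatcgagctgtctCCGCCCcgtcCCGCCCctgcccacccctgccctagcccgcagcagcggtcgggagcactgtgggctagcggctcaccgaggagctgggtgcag
Col18a1 downstream start, chr10:77113656-77113955, reverse strand: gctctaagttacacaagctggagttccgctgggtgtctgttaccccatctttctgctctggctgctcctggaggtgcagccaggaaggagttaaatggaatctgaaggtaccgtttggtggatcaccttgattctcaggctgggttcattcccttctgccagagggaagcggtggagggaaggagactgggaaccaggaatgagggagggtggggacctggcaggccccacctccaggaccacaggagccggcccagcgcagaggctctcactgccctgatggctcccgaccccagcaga
The upstream window holds 3 matches and the downstream window none. The RefSeq table gave 40 windows for 33 members. Of these 40, 27 (67.5%) hold GGGCGG on either strand, against 35.7% of all 32851 windows, and the member windows have a median GC content of 60.3% against 52.7%. GATAA, the core read by GATA factors, is in 4 of the 40 windows (10.0%) and in 25.4% of all windows. CAGATG, an E-box of the kind that Scl complexes read, is in 7 (17.5%) and in 17.2% of all windows. These are matches of letters and not sites.

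Fibronectin (Fn1), which cells assemble into the first fibrils of a new matrix, was the highest of the 49 genes in every library. It had 438 FPKM in the library labelled Gata12KO (bounds 436 to 441), 422 in SclKO (420 to 425) and 383 in WT (381 to 386). Sparc, a secreted collagen-binding glycoprotein, came next with 241 FPKM in the library labelled Gata12KO, 194 in SclKO and 336 in WT. These levels placed Fn1 at rank 46 in the library labelled Gata12KO, 65 in SclKO and 89 in WT, among 10992 expressed genes with transcripts of 300 nt or longer. Fn1 thus ranked among the more abundant transcripts of these cells. At the deposited scale its ratio to WT was within 1.14-fold in the library labelled Gata12KO and 1.10-fold in SclKO. With the libraries rescaled to their summed FPKM over entries of 300 nt or longer, its log2 ratios to WT were 0.50 and 0.28. Rescaled to their whole sum of FPKM (TPM), they were 0.89 and 0.015. Entries of 300 nt or longer held 238002 of the 547512 summed FPKM in the library labelled Gata12KO. They held 266598 of 966266 in SclKO and 295009 of 886209 in WT. The larger part of each whole sum thus lay on shorter entries, and every value under TPM rests on them.

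**Figure D1:**
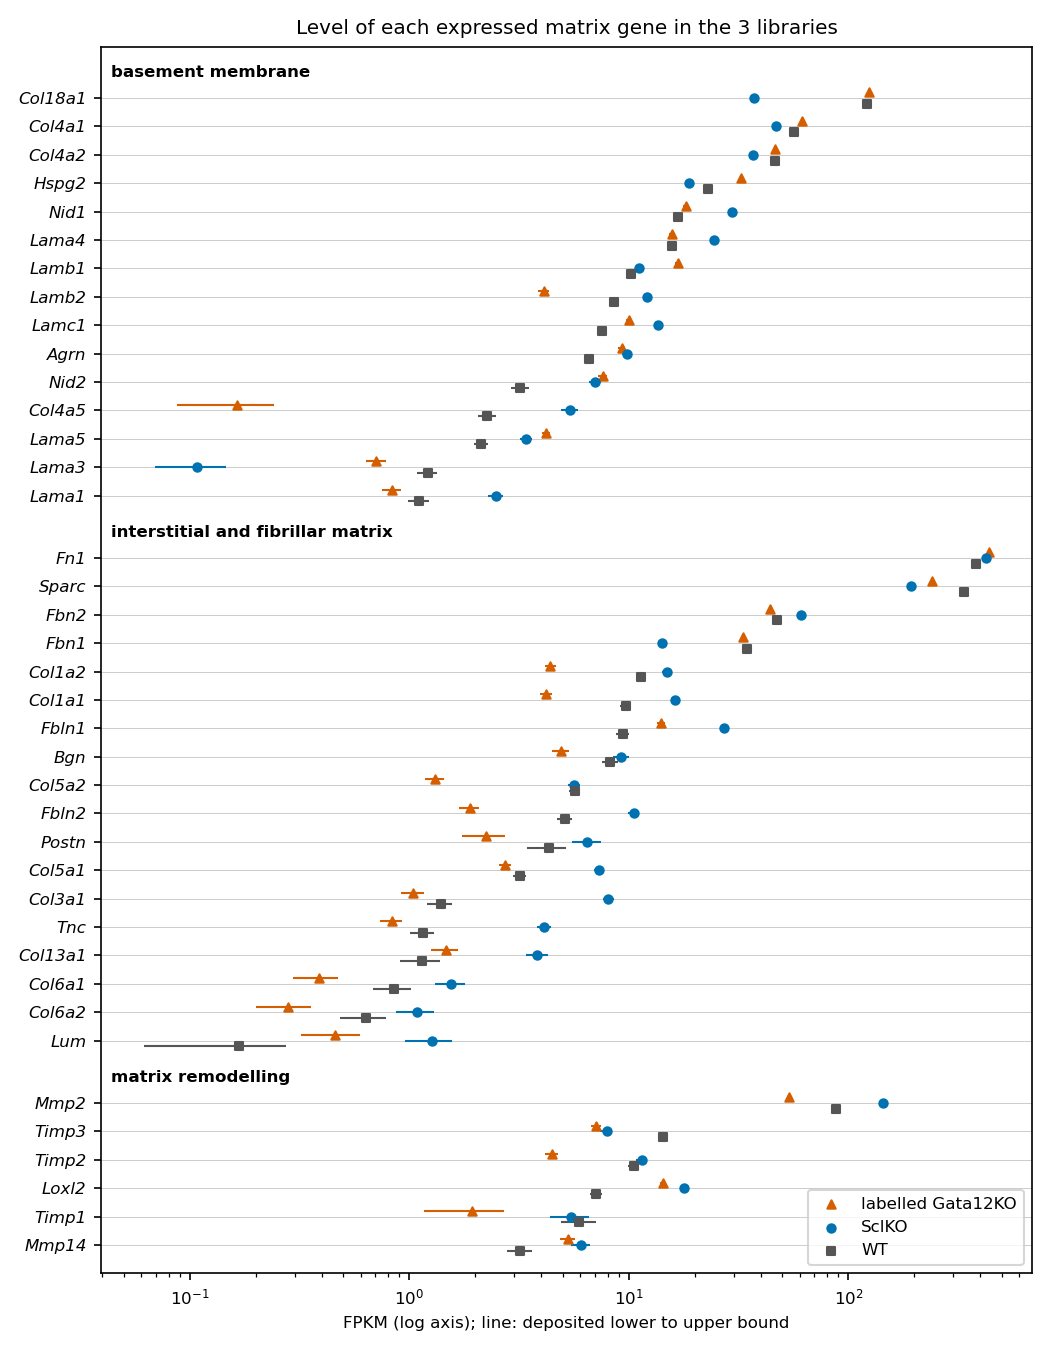
Levels of the 39 matrix genes that reached 1 FPKM in any library, in FPKM on a log axis, with 1 row per gene and 1 marker per library. Lines run between the deposited bounds. Fn1 and Sparc lie above 190 FPKM in each library, and Col18a1 and Fbn1 are lowest in SclKO while most fibrillar collagen chains are highest there.

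Below Fn1 and Sparc, the order differed between libraries. Col18a1 came next in the library labelled Gata12KO and in WT, but after Mmp2, Fbn2 and Col4a1 in SclKO, where its bounds overlapped those of Col4a2. Mmp2, the gelatinase that degrades type IV collagen and denatured collagen, had 53.7 FPKM in the library labelled Gata12KO, 144 in SclKO and 88.1 in WT. Fbn2, the fibrillin of embryonic microfibrils, had 44.1 FPKM in the library labelled Gata12KO, 60.6 in SclKO and 47.1 in WT, and in WT its bounds overlapped those of Col4a2. Among the 39 expressed genes, 19, 22 and 25 neighbours in the order of level had overlapping bounds in the libraries labelled Gata12KO, SclKO and WT, so the lower part of the order is not resolved.

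A group of 10 genes stayed under 1 FPKM in each library. They were Col15a1 and Lama2 of the basement membrane, Col6a3, Col8a1, Dcn, Fbln5, Eln, Thbs1 and Thbs2 of the interstitial matrix, and Lox. These include decorin (Dcn), elastin (Eln) and the lysyl oxidase Lox, genes of maturing connective tissue. The highest values among them were 0.432 FPKM for Col15a1 in the library labelled Gata12KO and 0.414 for Eln in SclKO, and Col8a1 was listed at 0 in the library labelled Gata12KO and in WT. Just inside the limit lay Col6a2, with 0.279 FPKM in the library labelled Gata12KO, 1.08 in SclKO and 0.634 in WT, which passed through SclKO alone, as did Col6a1 and Lum. Counts over the 39 genes that passed therefore describe them and support no direction by themselves.

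The SclKO library was set against WT to ask what depends on Scl. In SclKO 5 of the 39 expressed genes were higher, 2 were lower and 32 lay between. Over all 11080 expressed genes these calls came to 2.12% and 4.24%, against 12.8% and 5.13% of these 39. The higher genes were Col3a1, Fbln1, Tnc and Col13a1, listed in the interstitial class, and Loxl2 of the remodelling class. The lower genes were Col18a1 and Fbn1. The median log2 ratio of the 39 was 0.49, against -0.03 over all expressed genes. It was 0.35 over all 49, against 0 over all genes in the files. Lower calls were 66.7% of all calls, and 53.5% with the libraries rescaled to their summed FPKM over entries of 300 nt or longer, where 9 of the 39 were higher and 2 lower, with Col5a1, Fbln2 and the basement membrane genes Nid2 and Col4a5 added to the higher ones. The 7 calls below were also made under each of 3 rescalings.

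Col3a1, the chain of the type III collagen of loose connective tissue, runs from 45368383 to 45406551 on the forward strand of chromosome 1 in mm9, in 51 exons. It had 8.06 FPKM in SclKO (7.60 to 8.52) and 1.39 in WT (1.21 to 1.57). That was 5.81-fold higher in SclKO (counting interval 5.05 to 6.67), the widest ratio of the set in this comparison on the log2(FPKM + 1) scale, at 1.92. The fibulin Fbln1 had 27.2 FPKM in SclKO and 9.37 in WT (log2 ratio 1.44). Tnc, an adhesion-modulating glycoprotein of moving and remodelling tissue, had 4.12 FPKM in SclKO and 1.15 in WT (1.25). Col13a1, a collagen held in the cell membrane, had 3.83 FPKM in SclKO and 1.14 in WT (1.17), and the collagen crosslinking enzyme Loxl2 had 17.9 FPKM in SclKO and 7.09 in WT (1.23). In none of these 5 did the bounds of the libraries overlap.

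Other fibrillar collagen chains lay under the 2-fold limit in SclKO. Col5a1, a type V chain that regulates fibril diameter, came just short of it with 7.30 FPKM in SclKO and 3.18 in WT, a log2 ratio of 0.99, and was called higher at 1.01 with rescaling to the median ratio and at 1.10 over longer entries. Of the type I chains, Col1a1 had 16.2 FPKM in SclKO and 9.66 in WT and Col1a2 14.9 FPKM in SclKO and 11.3 in WT. Col5a2, whose gene lies tail to tail with Col3a1 at a distance of 24.6 kb on chromosome 1, had 5.65 FPKM in SclKO and 5.68 in WT with overlapping bounds. Thus of these neighbouring genes Col3a1 was higher in SclKO and Col5a2 was at a like level in both libraries. Of 10 expressed mesenchyme markers, 5 were higher in SclKO and none lower, with Cdh11 at 25.9 FPKM in SclKO and 4.46 in WT and Pdgfrb at 9.16 FPKM in SclKO and 2.39 in WT. Their part in the collagen values was not tested.

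Col18a1 had 37.3 FPKM in SclKO (36.0 to 38.5) and 122 in WT (119 to 124), 3.26-fold lower in SclKO (counting interval 3.16 to 3.37). Nearly all of its level lay on the entry that begins at the upstream start shown above, of 42 exons between 76514924 and 76629275 on the reverse strand of chromosome 10. That entry had 36.7 FPKM in SclKO and 120 in WT, and the one from the downstream start had 0.616 FPKM in SclKO and 1.60 in WT. Fbn1, the fibrillin of elastic microfibrils, had 14.2 FPKM in SclKO (13.7 to 14.7) and 34.5 in WT (33.9 to 35.2), or 2.43-fold less (2.34 to 2.52), while its relative Fbn2 had 60.6 FPKM in SclKO and 47.1 in WT. Lama3, a laminin chain of epithelial basement membranes, had 0.108 FPKM in SclKO and 1.21 in WT. That was 11.2-fold less in FPKM (counting interval 7.78 to 16.2), from 31 reads in SclKO. On the FPKM + 1 scale it ended just outside the 2-fold limit, at a log2 ratio of -0.997. Of the 12 endothelial markers 6 were lower in SclKO and none higher, with Esam at 14.9 FPKM in SclKO and 88.0 in WT and Tie1 at 16.6 FPKM in SclKO and 64.2 in WT. Their part in the Col18a1 and Fbn1 values was not tested.

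The other basement membrane genes moved less than Col18a1. By the median the expressed genes of these classes were alike at the deposited scale. The log2 ratio in SclKO against WT was 0.50 over the 15 expressed basement membrane genes. It was 0.48 over the 18 expressed genes of the interstitial class. With the length trend removed these medians were 0.37 and 0.44. Over all genes of each class in the files they were 0.45 and 0.35. Col4a1 had 46.9 FPKM in SclKO and 56.7 in WT, and Col4a2 had 36.8 FPKM in SclKO and 46.4 in WT, log2 ratios of -0.27 and -0.32. Perlecan (Hspg2) had 18.7 FPKM in SclKO and 22.9 in WT and agrin (Agrn) 9.79 FPKM in SclKO and 6.60 in WT. Nid1 with 29.5 FPKM in SclKO and 16.8 in WT, Lamc1 with 13.6 FPKM in SclKO and 7.53 in WT and Lama4 with 24.4 FPKM in SclKO and 15.7 in WT had more in SclKO at less than 2-fold. Nid2, the second nidogen, had 7.02 FPKM in SclKO and 3.21 in WT, and Col4a5, an X-linked type IV chain, had 5.38 FPKM in SclKO and 2.26 in WT, with log2 ratios of 0.93 and 0.97. Within the class no gene was higher by the 2-fold rule, Col18a1 was lower and 14 of 15 lay between, and the bounds were apart with more in SclKO for 9 genes and with less for 5. Col4a5 and Nid2 were called higher with rescaling over longer entries and at a pseudocount of 0.1 FPKM, as was Lama1 at that pseudocount, so that the lack of higher calls in this class depends on the setting. Separate bounds at any fold were common, at 26.3% higher and 31.6% lower over all expressed genes, and they narrow with depth: the 39 members had a median of 1695 reads in SclKO, against 542 over all expressed genes.

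Among remodelling genes, Mmp2 had 144 FPKM in SclKO and 88.1 in WT, with bounds apart. Mmp14, the membrane protease that activates it, had 6.03 FPKM in SclKO and 3.21 in WT. The inhibitor Timp2, which also takes part in that activation, had 11.4 FPKM in SclKO and 10.5 in WT with overlapping bounds, and Timp1 had 5.45 FPKM in SclKO and 5.95 in WT, again with overlap. The small leucine-rich proteoglycan Bgn (biglycan) of the interstitial class had 9.24 FPKM in SclKO and 8.20 in WT, and Lum (lumican) 1.26 FPKM in SclKO and 0.167 in WT. Timp3, the inhibitor that binds to the matrix, had 7.92 FPKM in SclKO and 14.3 in WT, a log2 ratio of -0.78.

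**Figure D2:**
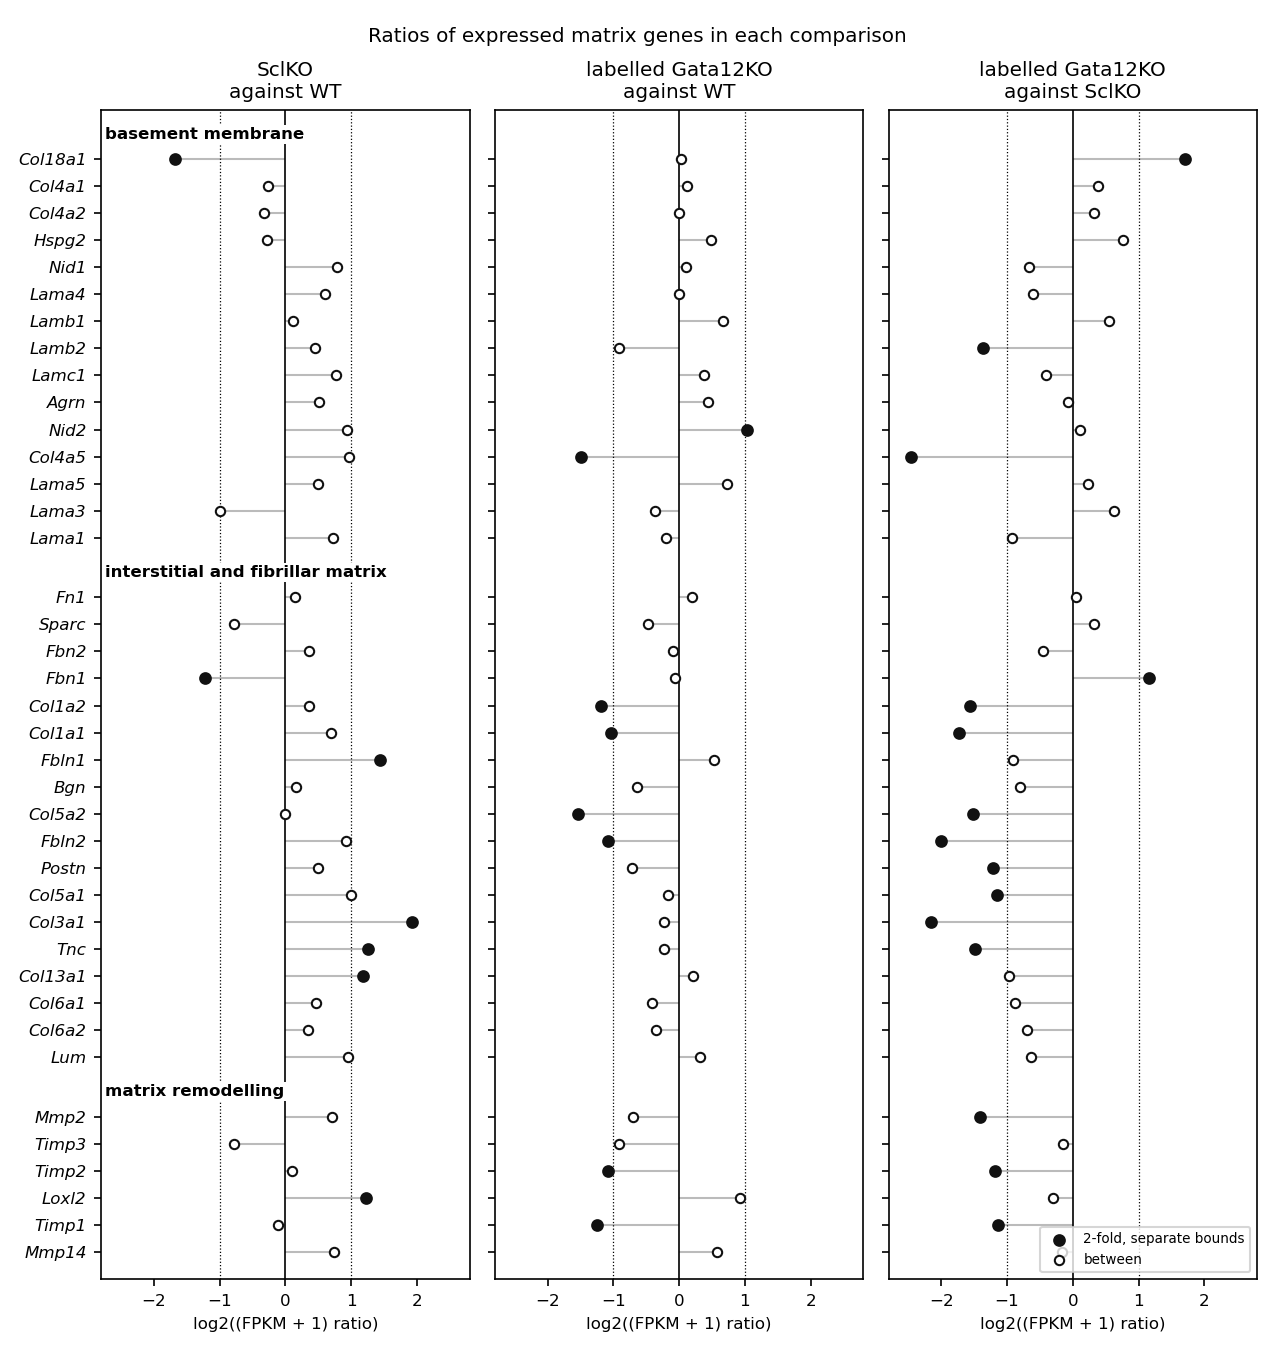
Log2 ratios of (FPKM + 1) for the 39 expressed matrix genes, with 1 panel per comparison and dotted lines at 2-fold. Filled points passed the 2-fold rule with separate bounds, 7 in SclKO against WT, 8 in the library labelled Gata12KO against WT and 15 in the library labelled Gata12KO against SclKO, and open points lie between.

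The library labelled Gata12KO was set against WT to ask what depends on Gata1 and Gata2. Of the 39 expressed genes 1 was higher, 7 were lower and 31 lay between. The same calls took 0.767% and 3.75% of all expressed genes, against 2.56% and 17.9% of these 39. The lower genes were fibrillar collagen chains, a fibulin, 2 protease inhibitors and Col4a5, and the higher gene was Nid2. The median log2 ratio was -0.16 over the 39, against -0.08 over all expressed genes. It was -0.07 over all 49, against 0 over all genes in the files. Lower calls were 83.0% of all calls, 44.4% with the libraries rescaled over entries of 300 nt or longer and 7.91% with them rescaled to their whole sum of FPKM (TPM), which put the median of all expressed genes at 0.18 and 0.51.

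Col1a1 had 4.19 FPKM in the library labelled Gata12KO (3.92 to 4.46) and 9.66 in WT (9.14 to 10.2), or 2.30-fold less (2.12 to 2.50). Col1a2 had 4.40 FPKM in the library labelled Gata12KO and 11.3 in WT, 2.57-fold less (2.39 to 2.77). Col5a2 had 1.31 FPKM in the library labelled Gata12KO and 5.68 in WT, 4.33-fold less (3.87 to 4.84). Col3a1, with 1.04 FPKM in the library labelled Gata12KO and 1.39 in WT, and Col5a1, with 2.73 FPKM in the library labelled Gata12KO and 3.18 in WT, lay between. All 5 fibrillar chains thus had less in this library with bounds apart, 3 of them by the 2-fold rule, although Col3a1 and Col5a1 had more there under TPM and Col5a1 under the rescaling over longer entries. Bounds apart at any fold were found for 24.2% of all expressed genes upward and 37.6% downward. The group of 5 was singled out after its values were seen. The calls of Col1a1, Col1a2, Fbln2 and Timp2 depend on the scaling: under the rescaling over longer entries their log2 ratios were -0.77, -0.92, -0.85 and -0.81, under the 2-fold limit, and Col5a2 was at -1.31. Only Col5a2 and Col4a5 of the 7 were still lower under TPM, at -1.07 and -1.29.

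Col4a5 had 0.165 FPKM in the library labelled Gata12KO (0.0876 to 0.242) and 2.26 in WT (2.05 to 2.49), 13.7-fold less (9.81 to 19.2). It is at 137909962 to 138123778 on the forward strand of chromosome X in mm9, in 51 exons, and 37 reads lay behind its value in the library labelled Gata12KO. Its X-linked neighbour of the type IV family, Col4a6, had 1.10 FPKM in the library labelled Gata12KO and 2.47 in WT. Fbln2 had 1.88 FPKM in the library labelled Gata12KO and 5.10 in WT, a log2 ratio of -1.08. Of the inhibitors, Timp2 had 4.46 FPKM in the library labelled Gata12KO and 10.5 in WT (-1.08) and Timp1 1.93 FPKM in the library labelled Gata12KO and 5.95 in WT (-1.25). Timp1 has the shortest transcript of the set, at 887 nt, and its ratio became -0.72 once the trend of ratios with length was removed.

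Nid2 had 7.62 FPKM in the library labelled Gata12KO (7.26 to 7.98) and 3.21 in WT (2.91 to 3.50), a log2 ratio of 1.04 that became 0.96 without the length trend. Other basement membrane genes had more there at less than 2-fold, as Hspg2 with 32.3 FPKM in the library labelled Gata12KO and 22.9 in WT, Lamb1 with 16.8 FPKM in the library labelled Gata12KO and 10.2 in WT and Lama5 with 4.19 FPKM in the library labelled Gata12KO and 2.12 in WT, although under TPM these 3 were called higher, at 1.15, 1.32 and 1.29, as were Lamc1 and Agrn. Col18a1 had 124 FPKM in the library labelled Gata12KO and 122 in WT, Col4a2 46.5 FPKM in the library labelled Gata12KO and 46.4 in WT and Lama4 15.8 FPKM in the library labelled Gata12KO and 15.7 in WT, each with overlapping bounds. Fbn1 had 33.0 FPKM in the library labelled Gata12KO and 34.5 in WT. These like levels hold at the deposited scale. Over longer entries the log2 ratios of Col18a1, Col4a2, Lama4 and Fbn1 were 0.34, 0.31, 0.29 and 0.24. Under TPM they were 0.72, 0.68, 0.66 and 0.62, none of them called. Loxl2 had 14.3 FPKM in the library labelled Gata12KO and 7.09 in WT, a log2 ratio of 0.92, which passed the limit under each of the 3 rescalings, at up to 1.57. Lamb2, a laminin beta chain of vessel and muscle basement membranes, had 4.09 FPKM in the library labelled Gata12KO and 8.59 in WT, a ratio of -0.91. Of the mesenchyme markers Acta2 was lower in this library, with 11.7 FPKM in the library labelled Gata12KO and 42.1 in WT. Foxf1 was higher, with 2.53 FPKM in the library labelled Gata12KO and 0.722 in WT. The other 8 lay between, such as Cdh11 with 2.84 FPKM in the library labelled Gata12KO and 4.46 in WT. At any fold 8 of the 10 expressed markers had less in this library, 7 with bounds apart, and 2 had more, 1 with bounds apart. Their median log2 ratio was -0.52, and -0.37 over all 14. Of the 12 endothelial markers Kdr and Flt1 were higher and none lower, with a median of 0.07. The part of both marker lists in the collagen values was not tested.

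The library labelled Gata12KO set against SclKO gave 15 calls. Of the 39 expressed genes this put 2 higher and 13 lower, or 5.13% and 33.3%, against 3.38% and 3.75% over all expressed genes. Lower calls were 52.6% of all calls, 39.3% with rescaling over longer entries and 5.14% under TPM, which put the median of all expressed genes at 0.64. The comparison shares a library with each comparison above, so it is not independent of them. The higher genes were Col18a1, with 124 FPKM in the library labelled Gata12KO and 37.3 in SclKO, and Fbn1, with 33.0 FPKM in the library labelled Gata12KO and 14.2 in SclKO. All 5 fibrillar collagen chains were lower, of which Col1a1 and Col3a1 kept the call under TPM and the other three had log2 ratios of -0.50 to -0.96 there. Col3a1 had 1.04 FPKM in the library labelled Gata12KO and 8.06 in SclKO, 7.76-fold less (6.82 to 8.84), Col1a1 4.19 FPKM in the library labelled Gata12KO and 16.2 in SclKO, Col1a2 4.40 FPKM in the library labelled Gata12KO and 14.9 in SclKO, Col5a2 1.31 FPKM in the library labelled Gata12KO and 5.65 in SclKO, and Col5a1 2.73 FPKM in the library labelled Gata12KO and 7.30 in SclKO. Of the mesenchyme markers 7 of 10 were lower and none higher, and of the endothelial markers 9 of 12 were higher and none lower, and their part was not tested.

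Also lower in the library labelled Gata12KO than in SclKO were Col4a5, with 0.165 FPKM in the library labelled Gata12KO and 5.38 in SclKO, and Lamb2, with 4.09 FPKM in the library labelled Gata12KO and 12.1 in SclKO. Tnc had 0.831 FPKM in the library labelled Gata12KO and 4.12 in SclKO, Fbln2 1.88 FPKM in the library labelled Gata12KO and 10.5 in SclKO, and periostin (Postn), a matrix protein of valves and mesenchyme, 2.23 FPKM in the library labelled Gata12KO and 6.47 in SclKO. Mmp2 had 53.7 FPKM in the library labelled Gata12KO and 144 in SclKO, Timp2 4.46 FPKM in the library labelled Gata12KO and 11.4 in SclKO, and Timp1 1.93 FPKM in the library labelled Gata12KO and 5.45 in SclKO. Genes that lay between included Fbln1 with 14.0 FPKM in the library labelled Gata12KO and 27.2 in SclKO, Col6a1 with 0.386 FPKM in the library labelled Gata12KO and 1.55 in SclKO, and Lama1 with 0.833 FPKM in the library labelled Gata12KO and 2.48 in SclKO. Of these 8 genes Col4a5 and Fbln2 kept the call under TPM, at -2.14 and -1.37, while the other six lost it, such as Lamb2 at -0.66, Mmp2 at -0.60 and Timp2 at -0.48, and Timp1 was at -0.89 with the length trend removed. Of the interstitial class 8 of 18 expressed genes were lower and 1 higher, with a median log2 ratio of -0.94. Among the 18, Col6a1, Col6a2 and Lum passed the expression minimum through SclKO alone, and over all 25 of the class the median was -0.70. Of the basement membrane class 2 of 15 expressed genes were lower and 1 higher, with a median of 0.10, and 0.10 over all 17. The median was -0.06 over all expressed genes and 0 over all genes in the files. These class values are at the deposited scale. Under TPM Col4a1, Col4a2, Lamb1 and Hspg2 of the basement membrane class were also called higher, at 1.19, 1.13, 1.32 and 1.55. Sparc of the interstitial class was called higher there as well, at 1.13.

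The make-up of the chains differed between libraries as well. Col4a1 and Col4a2, which share their start region, stood at a ratio of 1.33 in the library labelled Gata12KO (counting interval 1.30 to 1.36), 1.27 in SclKO (1.23 to 1.32) and 1.22 in WT (1.19 to 1.26). Fibrillar collagen chains together came to 0.126 of the FPKM of Col4a1 and Col4a2 in the library labelled Gata12KO, 0.622 in SclKO and 0.303 in WT. Col4a1 and Col4a2 together thus stood above the 5 fibrillar chains in each library, by sums that count transcripts and not protein. Col1a1 to Col1a2 stood at 0.953 in the library labelled Gata12KO (0.874 to 1.04), 1.09 in SclKO (1.03 to 1.16) and 0.854 in WT (0.796 to 0.916). Col6a1 to Col6a2, which are neighbours on chromosome 10, stood at 1.38 in the library labelled Gata12KO, 1.44 in SclKO and 1.34 in WT, with intervals that overlap.

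Of the laminin alpha chains, Lama4, the chain of endothelial basement membrane, held the largest share in each library, at 73.2% of alpha chain FPKM in the library labelled Gata12KO, 80.0% in SclKO and 77.8% in WT. Lama5, the other vascular alpha chain, held 19.5% in the library labelled Gata12KO, 11.2% in SclKO and 10.5% in WT. Lama1, the chain of early embryonic basement membranes, held 3.87% in the library labelled Gata12KO, 8.15% in SclKO and 5.48% in WT, and Lama3 held 3.30% in the library labelled Gata12KO, 0.355% in SclKO and 5.99% in WT. Of the beta chains, Lamb1 stood to Lamb2 at 4.11 in the library labelled Gata12KO (3.85 to 4.38), 0.921 in SclKO (0.863 to 0.983) and 1.19 in WT (1.11 to 1.28). Nid1 stood to Nid2 at 2.38 in the library labelled Gata12KO, 4.20 in SclKO and 5.23 in WT. The fibrillins Fbn1 and Fbn2 stood at 0.75 in the library labelled Gata12KO, 0.234 in SclKO and 0.733 in WT, so that SclKO was the library with the lower share of Fbn1. Mmp2 stood to Timp2 at 12.0 in the library labelled Gata12KO, 12.6 in SclKO and 8.35 in WT.

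**Figure D3:**
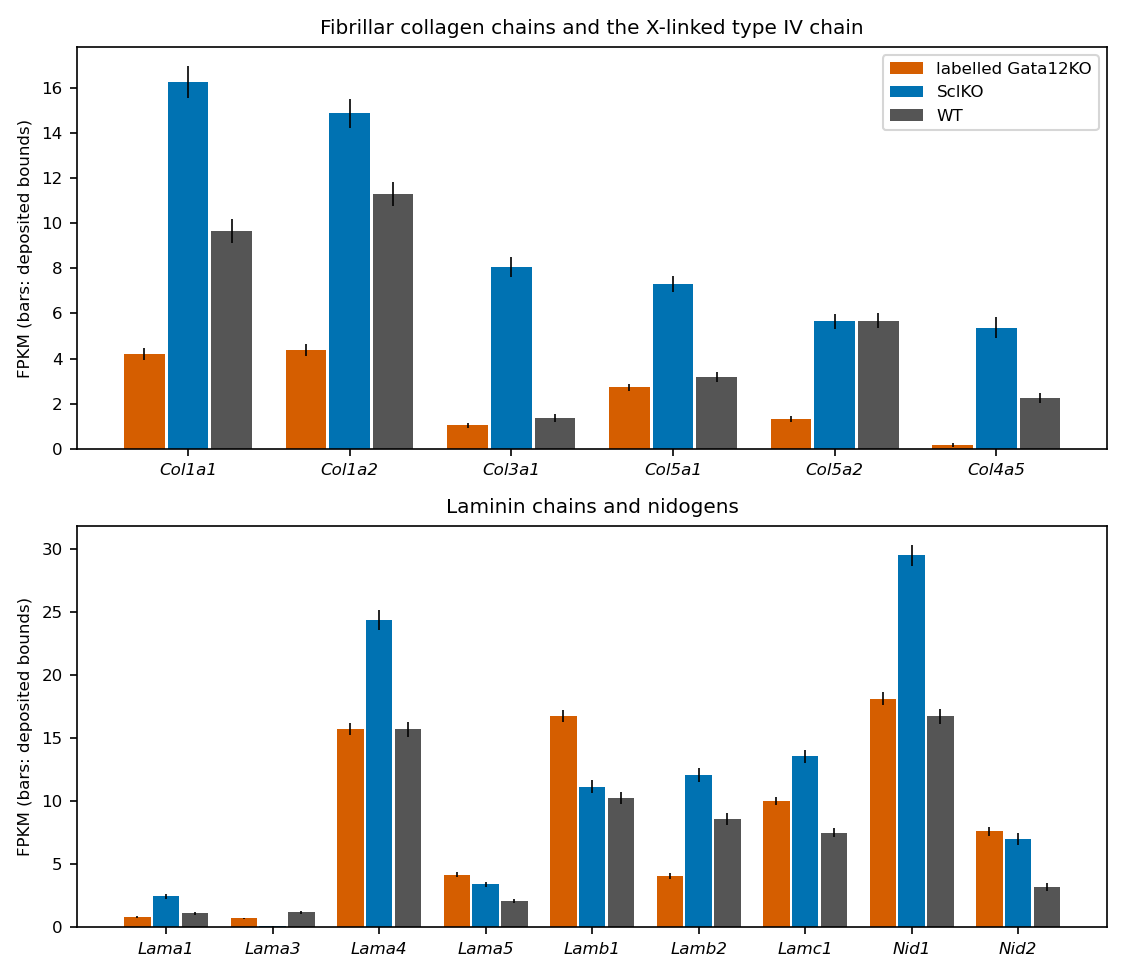
FPKM of fibrillar collagen chains and Col4a5 (upper panel) and of laminin chains and nidogens (lower panel), with bars for the library labelled Gata12KO, SclKO and WT from left to right and error bars at the deposited bounds. Each fibrillar chain is lowest in the library labelled Gata12KO at the deposited scale, although under TPM Col3a1 and Col5a1 have more there than in WT, and Lamb1 is highest and Lamb2 lowest there.

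For 7 genes the files list more than 1 entry, and the split between entries is an estimate from shared reads. Of the 3 entries of Postn, one of 21 exons had 1.31 FPKM in the library labelled Gata12KO, 5.35 in SclKO and 1.09 in WT. An entry of 22 exons and 3211 nt had 0.694 FPKM in the library labelled Gata12KO, 0.996 in SclKO and 2.72 in WT. The entries thus went different ways, more of the 21-exon one in SclKO and more of the 22-exon one in WT, where their sum had a log2 ratio of 0.49 in SclKO against WT. Of the 2 entries of Col4a5, the one of 51 exons held most of the level, with 0.114 FPKM in the library labelled Gata12KO, 4.91 in SclKO and 2.26 in WT.

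Genes that act on or with this matrix were counted in 6 further lists. Their counts are small and stand beside 2.12% higher and 4.24% lower of all expressed genes in SclKO against WT, 0.767% and 3.75% in the library labelled Gata12KO against WT, and 3.38% and 3.75% in that library against SclKO. Of 20 expressed genes of collagen biosynthesis and secretion, 2 were higher and none lower in SclKO against WT. They were the collagen chaperone Serpinh1, with 335 FPKM in SclKO and 162 in WT, and the procollagen N-propeptidase Adamts2, with 7.33 in SclKO and 2.30 in WT. In the library labelled Gata12KO against WT the lysyl hydroxylase Plod2 was higher, with 17.2 FPKM against 7.58 in WT, and the procollagen C-proteinase enhancer Pcolce was lower, with 1.45 FPKM against 4.42 in WT. Against SclKO 4 of the 20 were lower, among them Adamts2 with 0.878 FPKM in the library labelled Gata12KO and 7.33 in SclKO, Pcolce with 1.45 FPKM in the library labelled Gata12KO and 9.36 in SclKO, and Loxl1 with 1.17 FPKM in the library labelled Gata12KO and 5.03 in SclKO.

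Other collagen chains had 6 expressed genes of 28. Col4a6 and Col9a2 were higher in SclKO than in WT, with 7.34 FPKM in SclKO and 2.47 in WT for Col4a6 and 3.75 in SclKO and 1.07 in WT for Col9a2, and both were lower in the library labelled Gata12KO than in SclKO. A chain of that list, Col12a1, was not matched to an entry. Of 3 expressed further basement membrane genes, Frem1 was higher in SclKO, with 6.19 FPKM against 1.36 in WT. Frem1 and the calcium-binding matrix protein Smoc2 were lower in the library labelled Gata12KO than in SclKO, with 1.34 FPKM in the library labelled Gata12KO and 6.19 in SclKO for Frem1 and 0.194 in the library labelled Gata12KO and 1.41 in SclKO for Smoc2. Of 16 further glycoproteins and proteoglycans, 4 were higher and 3 lower in SclKO against WT, and none higher and 3 lower for the library labelled Gata12KO set beside WT. Tgfbi, an adhesion protein, had 3.01 FPKM in the library labelled Gata12KO, 20.2 in SclKO and 8.48 in WT. Hapln1, a hyaluronan link protein, had 93.1 FPKM in the library labelled Gata12KO, 21.0 in SclKO and 64.0 in WT and was lower in SclKO than in WT, as was Sparcl1, a relative of Sparc, with 4.18 in the library labelled Gata12KO, 1.10 in SclKO and 7.91 in WT. Igfbp7, a secreted protein that binds insulin-like growth factors, had 0.0311 FPKM in the library labelled Gata12KO, 3.63 in SclKO and 0.428 in WT and was higher in SclKO than in WT. The microfibril proteins Mfap2 and Mfap4 were lower in the library labelled Gata12KO than in WT, as was Tgfbi. Mfap2 had 5.91 FPKM in the library labelled Gata12KO, 20.2 in SclKO and 15.2 in WT, and Mfap4 had 2.23 FPKM in the library labelled Gata12KO, 12.2 in SclKO and 6.75 in WT.

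Of 10 expressed further proteases and inhibitors, 2 were higher in SclKO than in WT and none was lower. Mmp9, the second gelatinase, had 0.568 FPKM in the library labelled Gata12KO, 5.36 in SclKO and 0.503 in WT, and Adamts9, a versican-cleaving protease, had 3.32 in the library labelled Gata12KO, 8.42 in SclKO and 2.94 in WT. Both were lower in the library labelled Gata12KO than in SclKO, and so was the membrane protease Mmp15, with 6.04 FPKM in the library labelled Gata12KO and 15.7 in SclKO. Of 17 expressed matrix receptors, the integrin subunits Itga8 (1.71 FPKM in the library labelled Gata12KO, 5.41 in SclKO and 1.81 in WT) and Itgb5 (3.86 in the library labelled Gata12KO, 9.98 in SclKO and 4.31 in WT) were higher in SclKO. Itga1, a subunit of a receptor for collagen and laminin, was higher in the library labelled Gata12KO than in WT, with 6.11 FPKM against 1.95 in WT. Over their expressed genes, 3 to 20 a list, the median log2 ratios of these 6 lists lay between 0.30 and 0.97 in SclKO against WT, but over all their genes in the files they lay between 0.002 and 0.24. For the library labelled Gata12KO against WT they lay between -0.46 and 0.08 over expressed genes and between -0.08 and 0.04 over all genes in the files.

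Matrix transcripts are long, and ratios in these files followed length. The median transcript was 5564 nt long for the 39 genes and 2751 nt for expressed genes at large. In the library labelled Gata12KO against WT the median log2 ratio was -0.47 for expressed genes from 312 to 1532 nt and 0.12 for those from 4574 nt up. In SclKO against WT these were -0.25 and 0.09. With the trend removed, the median of the 39 genes in SclKO against WT was 0.40 in place of 0.49, the 5 higher and 2 lower genes were called again, and Lum and Lama3 were called besides, at 1.02 and -1.13. In the library labelled Gata12KO against WT the median was -0.33 in place of -0.16, Nid2 and Timp1 were no longer called, and Lamb2 was called lower at -1.02.

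**Figure D4:**
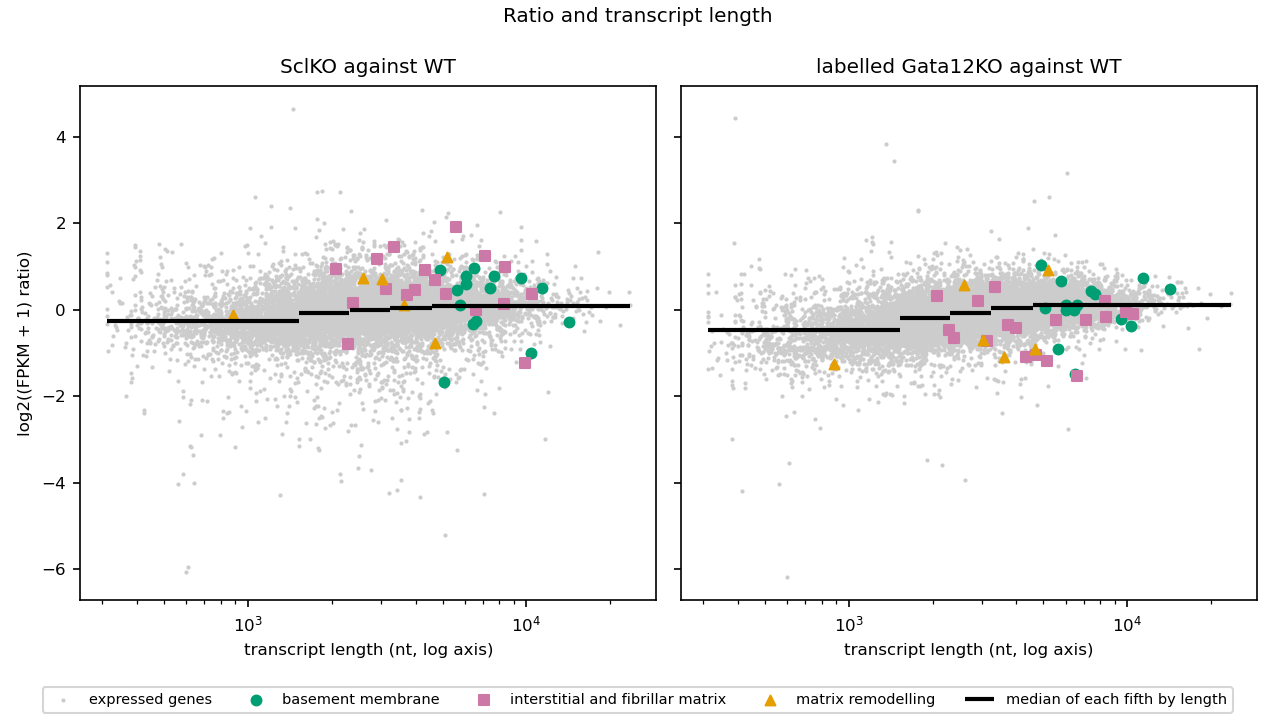
Log2 ratio of (FPKM + 1) against transcript length on a log axis for expressed genes (grey) and the matrix genes by class, in SclKO against WT and in the library labelled Gata12KO against WT. Black bars are medians of expressed genes in 5 bins of length, which go from -0.25 to 0.09 and from -0.47 to 0.12.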

How the data were processed

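Total RNA of 3 libraries was sequenced as 50-base reads, per the labels' protocols. The deposited values are FPKM with lower and upper bounds, given by the authors for each listed transcript, per the file headers. The submitters' processing notes name TopHat2 2.0.4, Cufflinks 2.0.1 and Cuffdiff, with builds mm9 and hg19 and no roles. The chromosomes are those of mouse, and the sources used here do not state whether strand was used. Entries were matched between files by position and exons. Of 30123 entries, 29535 took symbols from RefSeq (GRCm38.p6) and 175 from GENCODE. FPKM and bounds were summed per gene, and reads were recovered from the width of the bounds. Ratios are log2 of (FPKM + 1), which understates low genes. Named genes are every called member, the 10 members highest in WT, the members under 1 FPKM and, from each further list and comparison, up to 3 called genes with the largest ratios, of which the text gives those of the matrix lists and examples from the marker lists; other members are named for their place in a family. RefSeq start windows on chromosome 18 were left out for the members but not from the windows of all genes. Members and lists were chosen with earlier results of these data known. Alternatives were the pseudocount, the minimum, 3 rescalings, length, entry choice and the 2-fold limit alone. Python 3.11 and pandas were used.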

Additional observations from a re-analysis of the deposited data

How the results depend on the processing

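No paired analysis was possible because each group has 1 library, and for the same reason no library could be left out. In SclKO against WT, 5 genes were higher, with 11 at a pseudocount of 0.1 FPKM and 9 with rescaling over entries of 300 nt or longer. In the library labelled Gata12KO against WT, 1 gene was higher, with 3 at a pseudocount of 0.1 FPKM, 2 with rescaling to the median ratio, 2 over longer entries, 9 under TPM and 0 with the length trend removed. In that comparison 7 genes were lower, with 3 over longer entries and 2 under TPM. In the library labelled Gata12KO against SclKO, 2 were higher and 13 lower, with 7 and 4 under TPM. The other 39 counts stayed within 1.5 times those reported. In the library labelled Gata12KO against WT, the median log2 ratio of the interstitial class was 0.16 under TPM in place of -0.29, and that of the basement membrane class -0.014 without the length trend in place of 0.11. Under TPM the basement membrane median was 0.77, the value of Nid1. Over all comparisons and alternatives 2 class medians changed sign, 27 moved by more than the typical counting error of the class and 37 did not. The causes were not tested beyond the alternatives' construction. An expression minimum set on the SclKO or WT library alone, chosen after seeing the data, left the 5 and 2 calls in SclKO against WT. Depth limits low genes most: 37 reads or fewer lay behind the least covered of the 39 expressed members in each library.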
